A study of Mus musculus with 4 samples.

Results

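The genes described here make and load MHC class II molecules, and all 10 were chosen by symbol from the 22026 genes listed in every library. They are the antigen-binding chains H2-Aa, H2-Ab1 and H2-Eb1, the invariant chain Cd74, the protease Ctss, the peptide editors H2-DMa, H2-DMb1 and H2-DMb2, their modulator H2-Oa, and the transactivator Ciita. RNA was measured in macrophages grown from mouse bone marrow, in 2 libraries from RBP-J KO mice and 2 from wild-type control mice (WT). RBP-J KO mice carry floxed Rbpj alleles and LysM cre (Rbpj f/f;LysM cre), so that Rbpj, which encodes the DNA-binding protein of Notch signalling, is deleted where the lysozyme M locus is active, mainly in macrophages, monocytes and granulocytes. The labels do not say whether the WT mice carry floxed alleles or Cre. Both groups are on the C57BL/6 strain, were 8 weeks old, and had their marrow cultured for 3 days with a supernatant supplying M-CSF equivalent to 20 ng/ml. The study asked which mRNA levels depend on RBP-J in these cells.

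MHC class II molecules carry peptides of engulfed proteins to the cell surface, where CD4 T cells read them. An alpha and a beta chain assemble on the invariant chain, which plugs the peptide groove and is cut away by cathepsin S in late endosomes. H2-DM then swaps the remaining fragment for a stable peptide, and H2-O restrains H2-DM. Transcription of the set depends on CIITA, a coactivator that docks on the factors bound to the X and Y boxes of class II promoters. Interferon-gamma is the classical inducer of Ciita in macrophages, whereas dendritic cells and B cells express class II constitutively.

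The X and Y boxes can be seen in the RefSeq promoter windows (build GRCm38.p6, 250 bases before to 50 after the start), which were matched for 7 of the 10 members: H2-Aa, H2-Eb1, H2-DMa, H2-DMb1, H2-DMb2, H2-Oa and Ctss. The motif letters searched on both strands were ACNGATG for the X core and ATTGG for the Y core. A pair in a single orientation with 10 to 40 bases between them was found in H2-Eb1, H2-DMb1 and H2-DMb2, and in 0.225% of all 32851 windows. The stretches below show these pairs, then H2-Aa and H2-Oa, which hold a Y core with no X core at that distance. Capitals mark the X core and the Y core.

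H2-Eb1 (chr17:34305764-34305822, plus strand): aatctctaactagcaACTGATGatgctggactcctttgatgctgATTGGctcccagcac
H2-DMb1 (chr17:34153085-34153144, plus strand): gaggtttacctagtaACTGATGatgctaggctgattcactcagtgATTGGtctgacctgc
H2-DMb2 (chr17:34145114-34145173, plus strand): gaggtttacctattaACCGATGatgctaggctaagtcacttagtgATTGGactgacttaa
H2-Aa (chr17:34287857-34287916, minus strand): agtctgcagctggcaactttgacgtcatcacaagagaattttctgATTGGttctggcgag
H2-Oa (chr17:34092291-34092350, plus strand): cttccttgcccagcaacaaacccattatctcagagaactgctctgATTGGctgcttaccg

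The spacing was nearly constant: 22 bases lay between the cores in H2-Eb1 and 23 in both H2-DMb1 and H2-DMb2. H2-Eb2, a class II beta gene outside the members, also holds the pair, with 22 bases between the cores. Neither core was found in the window of the first listed start of H2-DMa, and that of Ctss held an X core alone. The window of a second start of H2-DMa held no X core and a Y core, which 37.4% of all windows hold. The RBP-J core TGGGAA was found in H2-Aa and H2-Oa of the 7 genes, and in 25.6% of all windows. The interferon-gamma element GAS, searched as TTCNNNGAA, was found in H2-DMb2 alone among the 7 and in 8.3% of all windows. Only these exact letters were searched, so a box with other letters would be missed, and a missing core is no proof of a missing box. A match or its absence describes letters in these windows and says nothing of binding.

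**Figure D1:**
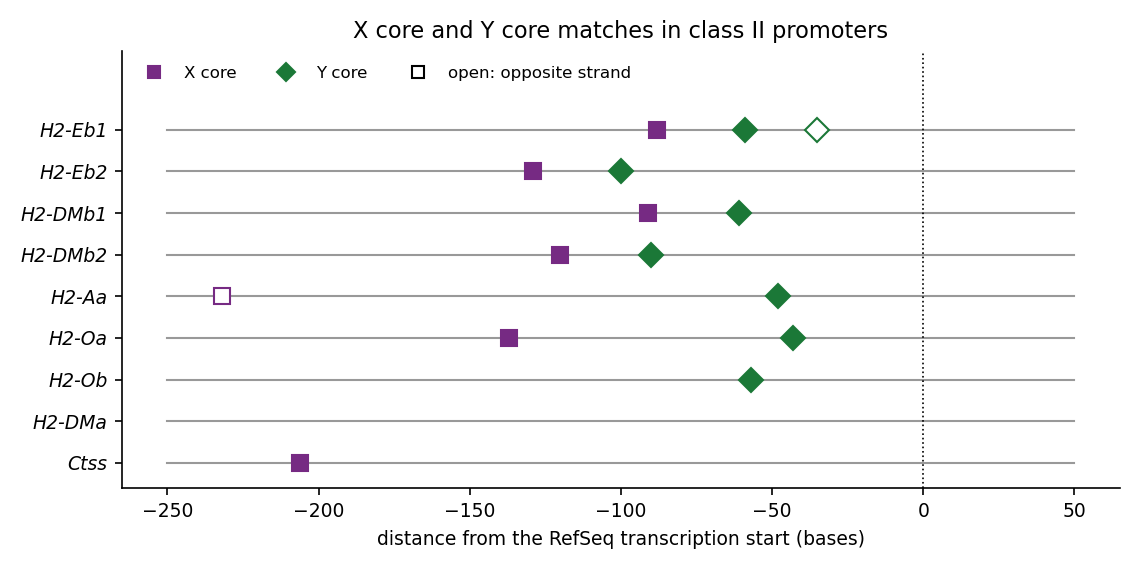
Positions of X core (squares) and Y core (diamonds) matches in RefSeq promoter windows, as the distance in bases from the transcription start, with open symbols on the opposite strand. The first listed start of each gene is drawn; H2-Eb1, H2-DMb1 and H2-DMb2, and the non-member H2-Eb2, each hold an X core with a Y core 22 or 23 bases after it.

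The deposited values were taken as FPKM, a measure that divides fragments by the length of the transcript and the size of the library, and the read depth is unknown. The summed FPKM of a library lay between 2125327 and 2389348, which is higher than FPKM values usually sum to, so the unit is uncertain. The replicate numbers split the libraries by file layout (genes in replicate 1, transcripts in replicate 2) and by sex, since Xist was listed at 0 in both replicate 1 libraries and Ddx3y at 0 in both replicate 2 libraries. RBP-J KO was therefore also set against WT inside each replicate number, called pair 1 and pair 2. No label says that equal numbers mark shared mice or that replicates are separate cultures, so p-values measure only how these 4 libraries vary, and that variation may be technical in part. Rbpj was at 51.5 and 77 FPKM in RBP-J KO replicates 1 and 2, against 355 and 573 FPKM in WT replicates 1 and 2. The macrophage genes Csf1r, Emr1 and Cd68 were at 2287 FPKM or more in every library. Of 8 macrophage markers, 2 were lower by 1.5-fold or more inside each pair, against 3.63% of all genes tested. These were Cd14, an endotoxin coreceptor, at 764 and 800 FPKM in RBP-J KO, against 1715 and 1570 FPKM in WT, and Lyz2, the lysozyme M gene whose locus drives the Cre, at 94.3 and 115 FPKM in RBP-J KO, against 218 and 192 FPKM in WT (adjusted p = 0.528 and 0.619 in limma with Benjamini-Hochberg).

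Class II presentation genes were higher in RBP-J KO than in WT inside both pairs, with H2-Oa as the exception. By this count 9 of the 10 stood higher each time and 0 stood lower, against 25.1% higher and 34.1% lower among the 11851 genes tested. On the log2(FPKM + 1) scale, 6 of the 10 were higher by 1.5-fold or more inside each pair and 0 were lower by as much, against 3.86% and 3.63% of all genes tested. Over the members, the median of the log2 differences was 1.40 (1.98 in pair 1 and 0.77 in pair 2), against -0.05 over all genes tested (-0.05 and -0.02). All 10 members had the mean of 1 FPKM needed for testing, H2-Oa through a single RBP-J KO library. Without H2-Oa the median was 1.38. It was 0.288 without RBP-J KO replicate 1 and 2.44 without RBP-J KO replicate 2. No member passed the adjusted test. Across the whole table limma, adjusted by Benjamini-Hochberg, called 0 genes at 0.05 (0% of those tested), while 524 genes (4.42%) had an unadjusted p under 0.05.

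**Figure D2:**
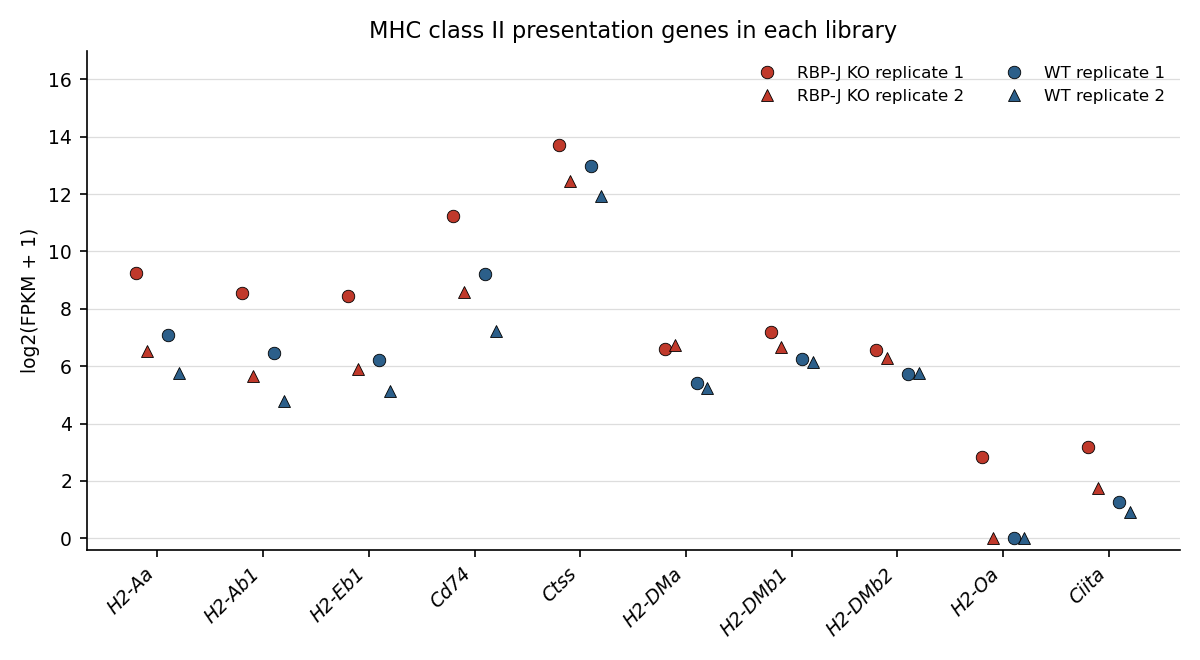
Level of each member in the 4 libraries as log2(FPKM + 1), 1 point per library, with RBP-J KO in red left of WT in blue. For H2-Aa, H2-Ab1, H2-Eb1 and Cd74 RBP-J KO replicate 1 stands far above the other 3 libraries, whereas for H2-DMa, H2-DMb1 and H2-DMb2 both RBP-J KO libraries lie above both WT libraries.

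The antigen-binding chains varied widely between libraries. H2-Aa, the alpha chain of I-A, was at 603 and 92.0 FPKM in RBP-J KO replicates 1 and 2, against 135 and 53.4 FPKM in WT replicates 1 and 2. H2-Ab1, its beta chain, was at 378 and 49.7 FPKM in RBP-J KO, against 87.8 and 26.9 FPKM in WT. H2-Eb1, the beta chain of I-E, was at 348 and 58.1 FPKM in RBP-J KO, against 73.7 and 33.9 FPKM in WT. In each of these genes the groups overlapped, because WT replicate 1 exceeded RBP-J KO replicate 2.

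Inside the pairs the chains had closely similar ratios. RBP-J KO over WT was 4.45 for H2-Aa, 4.31 for H2-Ab1 and 4.72 for H2-Eb1 in pair 1, and 1.72, 1.85 and 1.71 in pair 2. The fitted log2 differences were 1.46 (SE 1.01), 1.48 (SE 1.13) and 1.49 (SE 0.94), each with an adjusted p of 0.999 in limma with Benjamini-Hochberg adjustment. The ratio of H2-Aa to H2-Ab1 stayed between 1.54 and 1.99 over the 4 libraries. H2-Ea-ps, the gene of the I-E alpha chain as the files name it, was listed at 0 in all 4 libraries; mice of the C57BL/6 strain are known to lack that chain.

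RBP-J KO replicate 1 set the size of this difference. Its levels were 6.55, 7.61 and 5.99 times those of RBP-J KO replicate 2 for H2-Aa, H2-Ab1 and H2-Eb1, while WT replicate 1 had 2.54, 3.26 and 2.17 times the level of WT replicate 2. Without RBP-J KO replicate 1 the log2 differences were 0.11, 0.03 and 0.21, and without RBP-J KO replicate 2 they were 2.81, 2.93 and 2.77. By rank among the genes tested, H2-Aa stood at the 94.4 and 62.2 percentile in RBP-J KO and at the 69.8 and 46.5 percentile in WT.

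Cd74, the invariant chain, followed the chains it escorts. It was at 2433 and 385 FPKM in RBP-J KO replicates 1 and 2, against 593 and 150 FPKM in WT. The groups overlapped, as WT replicate 1 exceeded RBP-J KO replicate 2. The log2 difference was 1.69 (SE 1.11, adjusted p = 0.999 in limma with Benjamini-Hochberg), and 0.36 without RBP-J KO replicate 1 or 3.02 without RBP-J KO replicate 2. The ratio of Cd74 to H2-Aa was 4.04 and 4.18 in RBP-J KO, against 4.38 and 2.82 in WT.

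Both annotated forms of Cd74 have their own row in the replicate 2 tables. The longer transcript, NM_001042605 (1410 bases), encodes the invariant chain with an added thyroglobulin-type domain, and NM_010545 (1224 bases) the shorter chain. The longer form was at 58.8 FPKM in RBP-J KO replicate 2 and 16.8 FPKM in WT replicate 2. It made up 15.3% of Cd74 in RBP-J KO and 11.2% in WT. This comparison rests on 1 library per group and has no test, and Cufflinks splits reads between overlapping transcripts by estimation.

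Ctss, the cathepsin that removes the invariant chain, was the most abundant member by a wide margin. It was at 13390.4 and 5602 FPKM in RBP-J KO replicates 1 and 2, against 7991 and 3960.1 FPKM in WT. The ratio was 1.68 in pair 1 and 1.42 in pair 2, the groups overlapped, and the log2 difference was 0.62 (SE 0.58, adjusted p = 0.999 in limma with Benjamini-Hochberg). Without RBP-J KO replicate 1 it was -0.006, in the opposite direction. The level of Cd74 relative to Ctss was 0.182 and 0.0687 in RBP-J KO, against 0.0742 and 0.038 in WT, and the groups overlapped in this ratio too.

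The H2-DM genes behaved differently from the chains, in that the groups did not overlap. H2-DMa, the alpha chain of the editor, was at 95.9 and 104.7 FPKM in RBP-J KO, against 41.2 and 36.6 FPKM in WT. H2-DMb1, a beta chain, was at 144.5 and 99.9 FPKM in RBP-J KO, against 75.3 and 70.2 FPKM in WT. H2-DMb2, the second beta chain gene, was at 93.6 and 77.9 FPKM in RBP-J KO, against 51.9 and 53.5 FPKM in WT. Both RBP-J KO libraries lay above both WT libraries in these genes and in Ciita, 4 of the 10 members, against 11.7% of all genes tested.

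Replicates of a group were close for H2-DMa, while H2-DMb1 varied more in RBP-J KO (SD 31.6 FPKM). H2-DMa averaged 100.3 ± 6.19 FPKM in RBP-J KO and 38.9 ± 3.28 FPKM in WT (SD, n = 2 each), a fitted 2.54-fold difference (log2 difference 1.35, SE 0.20, adjusted p = 0.488 in limma with Benjamini-Hochberg). The log2 difference was 0.72 (SE 0.25) for H2-DMb1 and 0.69 (SE 0.20) for H2-DMb2, with adjusted p-values of 0.999 and 0.934 by the same limma fit. These were the members with an unadjusted p under 0.05, 3 of 10 in the direction of RBP-J KO, against 2.19% of all genes tested. Leaving out any 1 library left the H2-DMa difference between 1.26 and 1.43. For H2-DMb1 and H2-DMb2 the ranges were 0.45 to 0.98 and 0.56 to 0.82.

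The beta chain genes cannot be fully separated. Their GENCODE M21 transcripts were 93.9% identical over 1255 aligned bases, and 27.2% of the 50-base words of H2-DMb1 also occur in H2-DMb2, so how reads were divided between them is uncertain. Their ratio, H2-DMb1 over H2-DMb2, was 1.55 and 1.28 in RBP-J KO, against 1.45 and 1.31 in WT. The sum of both over H2-DMa was 2.48 and 1.70 in RBP-J KO, against 3.08 and 3.38 in WT. This ratio was thus lower in both RBP-J KO libraries, since H2-DMa differed more than its partners. The difference between the genes was not tested.

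H2-Oa, the alpha chain of H2-O, was detected in a single library. It was listed at 6.08 and 0 FPKM in RBP-J KO replicates 1 and 2, and at 0 in both WT libraries. No fold is given against a group listed at 0. H2-Ob, its beta chain partner and no member, was at 6.83 and 2.24 FPKM in RBP-J KO, against 1.26 and 0.91 FPKM in WT.

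Ciita, the transactivator of the whole set, was close to the lower end of detection. It was at 8.1 and 2.33 FPKM in RBP-J KO, against 1.39 and 0.87 FPKM in WT. The groups did not overlap, and the ratio of FPKM values was 5.83 in pair 1 and 2.68 in pair 2. On the log2(FPKM + 1) scale, which understates the change of low genes, the difference was 1.38 (SE 0.63, adjusted p = 0.999 in limma with Benjamini-Hochberg). Without RBP-J KO replicate 1 it was 0.66, and without RBP-J KO replicate 2 it was 2.11.

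**Figure D3:**
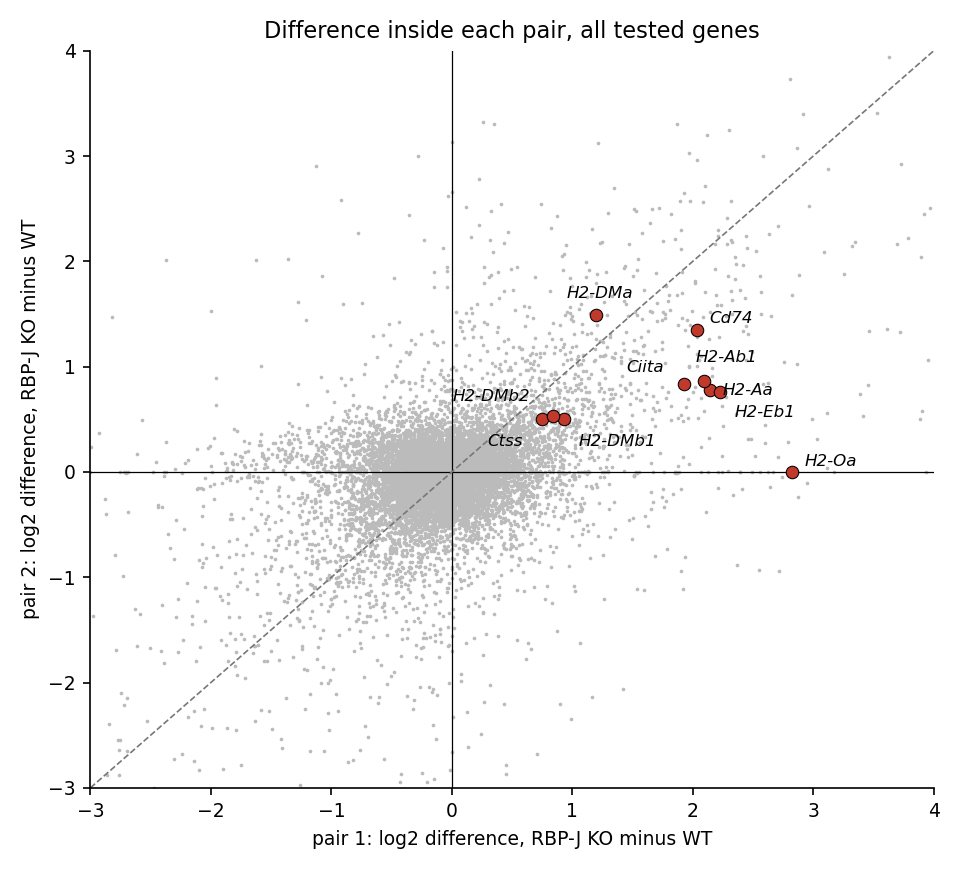
Log2 difference, RBP-J KO minus WT, of log2(FPKM + 1) inside pair 1 (horizontal) and pair 2 (vertical) for the 11851 genes tested (grey) and the 10 members (red); 64 genes lie outside the axes and the dashed line marks equal differences. All members except H2-DMa lie below the line, and H2-Oa lies at 0 in pair 2.

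An order of levels across genes holds only if the values are scaled by length, as FPKM is; no file header names the unit. In this order Ctss ranked 1 and Cd74 ranked 2 in all 4 libraries, with Ciita at 9 and H2-Oa at 10. The middle of the order changed with the replicate number. H2-Aa and H2-Ab1 ranked 3 and 4 in both replicate 1 libraries. In replicate 2, H2-DM genes held ranks 3 and 4, namely H2-DMa and H2-DMb1 in RBP-J KO and H2-DMb1 and H2-DMb2 in WT. Within RBP-J KO the ranges of the 2 libraries separated Ctss from Cd74, Ciita from all genes above it, and H2-DMb2 from H2-DMa and H2-DMb1. The other neighbours by mean level among Cd74, the chains and the H2-DM genes overlapped, as did Ciita and H2-Oa. Within WT, Ctss, Cd74, Ciita and H2-Oa each stood apart from their neighbours. There H2-DMb1 stood above H2-DMb2 and H2-DMb2 above H2-DMa, and the chains overlapped with H2-DMb1 and H2-DMb2. The 9 members other than Ctss held 0.175% and 0.0409% of summed FPKM in RBP-J KO, against 0.0444% and 0.0188% in WT.

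Genes of other class II cells also differed between the libraries. Of 12 dendritic cell markers, 12 and 7 were above 0 in RBP-J KO replicates 1 and 2, against 11 and 4 in WT. Their summed level was 198 and 41.6 FPKM in RBP-J KO, against 40.4 and 52.7 FPKM in WT, so that RBP-J KO replicate 1 stood apart here as it did for the chains. Flt3, the growth factor receptor of dendritic cells, was at 12.7 and 1.04 FPKM in RBP-J KO, against 0.88 and 0 FPKM in WT. Ccr7, the homing receptor of migrating dendritic cells, was at 32.0 and 0 FPKM in RBP-J KO, against 0.81 and 0 FPKM in WT, and Zbtb46, a defining dendritic cell factor, was above 0 in RBP-J KO replicate 1 alone (1.46 FPKM). Itgax, which macrophages also express, was at 95.1 and 22.4 FPKM in RBP-J KO, against 24.1 and 40.02 FPKM in WT. Itgax set the direction of the sum in pair 2: without it, a choice made after seeing the data, the other markers summed to 102 and 19.2 FPKM in RBP-J KO, against 16.2 and 12.7 FPKM in WT. Of the 9 dendritic cell markers tested, 6 were higher and 0 lower in both pairs, against 25.1% and 34.1% of all genes tested. Their median log2 difference was 1.94 in pair 1 and 0.51 in pair 2. Flt3, Ccr7, Xcr1, Cd209a, Btla and Dpp4 reached the mean of 1 FPKM needed for testing only through RBP-J KO replicate 1. The filter thus favoured a higher RBP-J KO in pair 1. In pair 2, Flt3, Xcr1, Btla and Dpp4 were at 0.42 to 1.04 FPKM in RBP-J KO, against 0 in WT. With WT replicate 2 at 0 in these genes and in Ccr7, none of them could be lower in pair 2. The count of 0 lower was thus fixed in advance for these genes. The count of 6 higher draws on the filter too, so no direction is read from either count.

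B cell markers summed to 69.3 and 34.8 FPKM in RBP-J KO, against 39.2 and 15.1 FPKM in WT. Cd79a, a chain of the B cell receptor complex, and Ms4a1, which encodes CD20, were listed at 0 in both replicate 2 libraries. In replicate 1 they were at 6.24 and 5.69 FPKM in RBP-J KO, against 2.83 and 3.92 FPKM in WT. Cd79b, which is also in this list, was at 20.7 and 26.0 FPKM in RBP-J KO, against 9.90 and 6.93 FPKM in WT. T cell markers summed to 35.6 and 12.1 FPKM in RBP-J KO, against 17.3 and 22.4 FPKM in WT. Cd4 alone made up this sum in both replicate 2 libraries. In replicate 1 Cd4 was at 25.1 FPKM in RBP-J KO and 15.3 FPKM in WT, most of the sum. Neutrophil markers summed to 8337 and 983 FPKM in RBP-J KO, against 6973 and 275 FPKM in WT. Macrophage markers summed to 19091 and 12556 FPKM in RBP-J KO, against 16834 and 15405 FPKM in WT. The part of other cells in the class II levels was not tested, and in bulk RNA fewer cells of a type and less RNA per cell cannot be told apart.

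**Figure D4:**
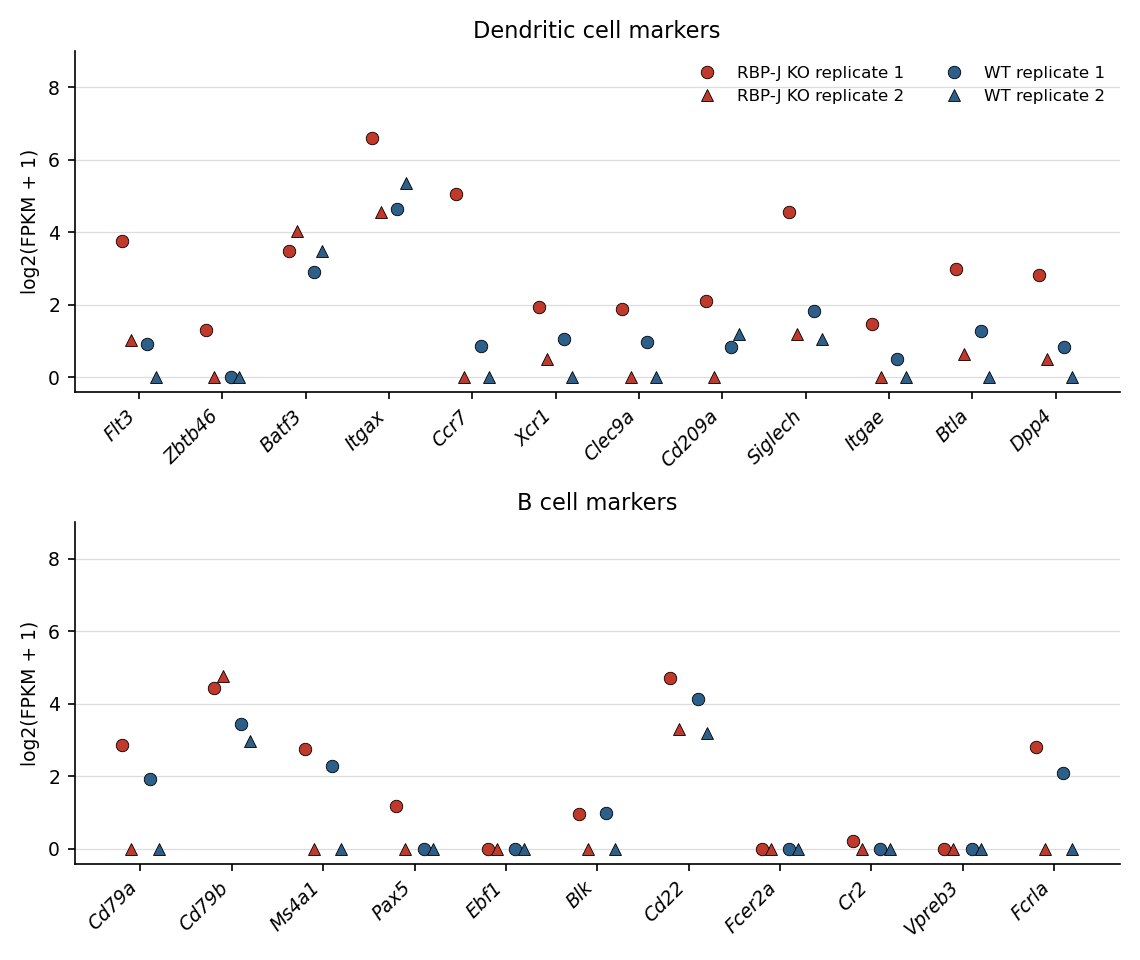
Levels of 12 dendritic cell markers (top) and of the B cell markers shown singly (bottom) in each library as log2(FPKM + 1), RBP-J KO in red left of WT in blue. RBP-J KO replicate 1 holds the highest Flt3, Ccr7 and Siglech, and Cd79a and Ms4a1 lie at 0 in both replicate 2 libraries.

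The remaining genes of the class II pathway did not move in a single direction. Of 18 listed, 15 had the mean level needed for testing, with a median log2 difference of -0.02. Inside each pair 4 were higher and 5 were lower, against 25.1% and 34.1% of all genes tested. None passed the adjusted test, and 1 had an unadjusted p under 0.05, against 4.42% of all genes tested. That gene was March1, the ubiquitin ligase that removes class II from the surface, at 225 and 203 FPKM in RBP-J KO, against 53.0 and 94.3 FPKM in WT (log2 difference 1.59, SE 0.33, adjusted p = 0.607 in limma with Benjamini-Hochberg). March8, a related ligase, was at 162 and 155 FPKM in RBP-J KO, against 202 and 212 FPKM in WT. Both groups were apart in each ligase, in opposite directions.

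Among the lysosomal proteases Ctsl and Ctsh, the difference also went both ways. Ctsl, cathepsin L, which cuts the invariant chain in thymic epithelium, was at 595 and 601 FPKM in RBP-J KO, against 8094 and 1240.05 FPKM in WT (log2 difference -2.40, SE 0.92, adjusted p = 0.999 in limma with Benjamini-Hochberg). Ctsh, cathepsin H, was picked here for its values and was at 1073 and 203 FPKM in RBP-J KO, against 330.1 and 54.1 FPKM in WT. Its groups overlapped. Ifi30, the thiol reductase of antigen processing, likewise picked for its values, stood at 1534 and 686 FPKM in RBP-J KO, against 1331 and 817 FPKM in WT, and was higher in pair 1 and lower in pair 2.

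The factors that bind class II promoters, and the coactivators that CIITA recruits, had small fitted differences between the groups. All 12 were tested, and 2 were higher and 2 lower in both pairs, against 25.1% and 34.1% of all genes tested. None of the 12 had an unadjusted p under 0.05 in limma. That is near the 4.42% of all genes tested, so this count says little by itself. Their log2 differences lay between -0.18 and 0.11. Opposite differences in the pairs cancel in such values, and single libraries differed more. Rfxank, picked here for its values, was at 22.3 and 17.9 FPKM in RBP-J KO, against 14.8 and 32.1 FPKM in WT. It was higher in pair 1 and lower in pair 2. Nfya, a subunit of the factor at the Y box, was at 219 and 190 FPKM in RBP-J KO, against 276 and 191 FPKM in WT. Creb1, which binds beside the X box, was at 88.2 and 72.6 FPKM in RBP-J KO, against 80.4 and 67.9 FPKM in WT. Atf1 and Kat2b had log2 differences of -0.18 (SE 0.30) and -0.11 (SE 0.22).

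The genes that induce or repress Ciita were mostly higher in both pairs, by small amounts. Of 16 listed, 15 were tested, and 13 were higher and 0 lower in both pairs, against 25.1% and 34.1% of all genes tested. Their median log2 difference was 0.22. Levels 1.5-fold or more higher inside each pair were reached by 3 of them, against 3.86% of all genes tested. Irf1, which drives Ciita after interferon, was at 361 and 239 FPKM in RBP-J KO, against 136 and 144 FPKM in WT (log2 difference 1.06, SE 0.26, adjusted p = 0.726 in limma with Benjamini-Hochberg). Prdm1, which represses Ciita in plasma cells, was at 51.1 and 20.3 FPKM in RBP-J KO, against 16.8 and 4.25 FPKM in WT.

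Signals upstream of these factors were nearer to equal. Ifngr1, the ligand-binding chain of the interferon-gamma receptor, was at 701 and 419 FPKM in RBP-J KO, against 402 and 404 FPKM in WT. Ifng itself was listed at 0 in all 4 libraries.

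Genes that share the chromosome 17 region or the sister pathway had smaller median differences than the members. Of 13 listed genes beside the class II cluster, 9 were tested (median log2 difference 0.51). In both pairs 8 were higher and 1 lower, against 25.1% and 34.1% of all genes tested. Psmb9 and Psmb8, immunoproteasome subunits, had log2 differences of 0.86 (SE 0.22) and 0.65 (SE 0.21), and the peptide transporters Tap1 and Tap2, which are in both lists, 1.03 (SE 0.31) and 0.50 (SE 0.17). All 7 class I genes were higher in both pairs, against 25.1% of all genes tested, with a median log2 difference of 0.56. H2-K1, a class I heavy chain, was at 5429 and 3278 FPKM in RBP-J KO, against 2456 and 2434 FPKM in WT, and B2m was at 32005 and 19294 FPKM in RBP-J KO, against 14934 and 15433 FPKM in WT.

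**Figure D5:**
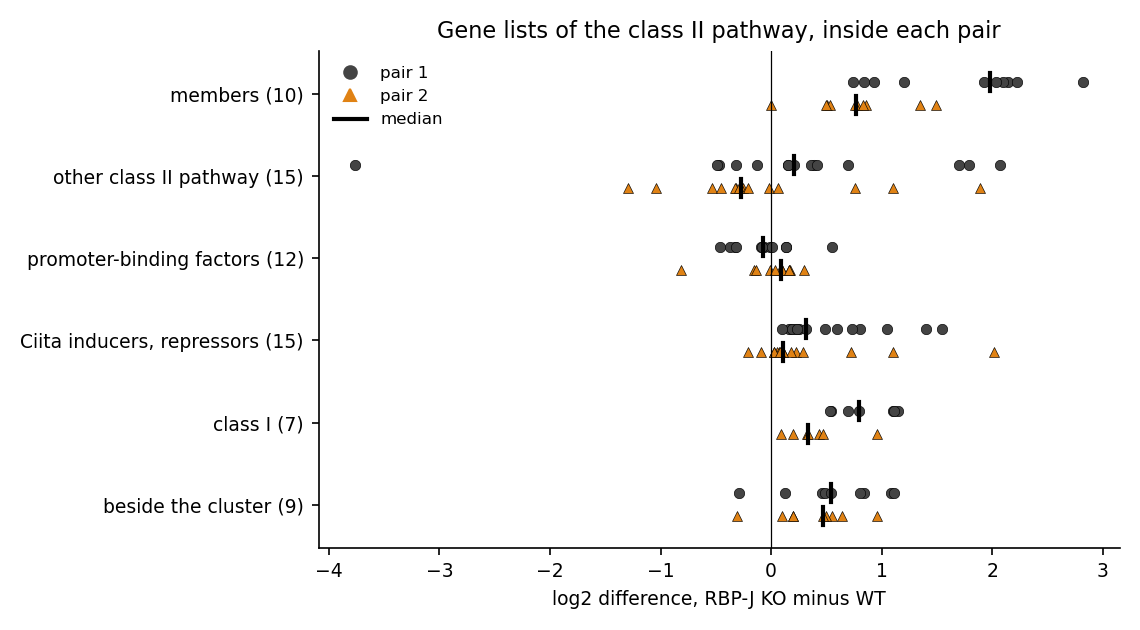
Log2 difference, RBP-J KO minus WT, of each tested gene inside pair 1 (circles) and pair 2 (triangles), by list, with the number of genes in brackets and black bars at the medians. The medians of the members are 1.98 and 0.77, and those of the promoter-binding factors are -0.08 and 0.09.

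By distance over the 4 libraries, the genes most like the mean centred profile of H2-Aa, H2-Ab1, H2-Eb1 and Cd74 among non-members were Ccl22, Slamf9, Fam83f, Ifit2 and H2-M2. The Euclidean distances on the log2(FPKM + 1) scale were 0.14, 0.24, 0.26, 0.26 and 0.37, against 0.15 to 0.36 for the 4 genes that make the profile and 1.08 to 2.23 for the other 6 members. Ccl22, a chemokine made by dendritic cells and macrophages, was at 10.4 and 0.99 FPKM in RBP-J KO, against 1.91 and 0 FPKM in WT. It reached the mean of 1 FPKM needed for testing only through RBP-J KO replicate 1. At such levels the added 1 FPKM shapes the distance. RBP-J KO replicate 1 had 10.5 times the level of replicate 2 for Ccl22, against 5.99 to 7.61 times for the 4 genes of the profile. Slamf9, a SLAM family receptor, was at 516 and 92.2 FPKM in RBP-J KO, against 120 and 49.0 FPKM in WT. Ifit2, an interferon-induced gene, was at 955 and 144 FPKM in RBP-J KO, against 196 and 87.6 FPKM in WT. H2-M2 is a class I-like gene, and like the others it was highest in RBP-J KO replicate 1. With 4 libraries and 11851 genes, near profiles of this kind are a description of these libraries.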

How the data were processed

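Poly(A) or other selection is not described; libraries followed the Illumina TruSeq RNA protocol, per the labels' protocols. Per the submitters' processing notes, TopHat, Cufflinks and the mouse build mm9 were used; any version, setting or gene annotation is not given in the sources used here. Because Cufflinks writes FPKM, the deposited values were taken to be FPKM, a unit that no file header names. Replicate 1 was given as 22026 gene rows and replicate 2 as 27583 transcript rows, which were summed per symbol; 25 symbols that had become calendar dates (March1 among them) were restored by number, month and description.

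The 11851 genes whose mean reached 1 FPKM were fitted as log2(FPKM + 1) with limma 3.58.1 in R 4.3.3, group as the only term, a variance trend, two-sided, Benjamini-Hochberg adjustment over all genes and a threshold of 0.05. Log2 differences and SE are from this fit, and pair differences are subtractions without a test. No count model was used, since FPKM values are not counts. The procedure was tested on simulated data. Promoter windows were read with Python 3.11.15 and transcripts aligned with Biopython 1.88; figures used matplotlib 3.10.9. GRCm38.p6 is not the build of the files, and no value was taken by coordinate. Members and lists were chosen with earlier results of these data known. Genes named singly were the 10 members, Rbpj, up to 4 genes per pathway list with the smallest p and the 5 nearest profiles; marker genes named beside them were chosen after their values were seen. Some genes of the lists are not reported here singly. Alternatives were other pseudocounts (0.1 and 5), filters (none, and a mean of 5 FPKM) and scalings, the highest transcript row, the replicate number as a block, and each library left out.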

Additional observations from a re-analysis of the deposited data

Results flagged for a closer look

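In 3 genes of the marker lists RBP-J KO lay above WT in pair 1 and below it in pair 2 by at least 1.5-fold each way; the difference between the pairs was not tested. The log2 difference in pair 1 exceeded that in pair 2 by 2.75 for Itgax and by 2.46 for Cd209a, both on the dendritic cell list, and by 1.52 for Cd4. Cd209a was at 3.27 and 0 FPKM in RBP-J KO replicates 1 and 2, against 0.78 and 1.30 FPKM in WT. Cd4 was at 25.1 and 12.1 FPKM in RBP-J KO, against 15.3 and 22.4 FPKM in WT. None of the 10 members showed opposite directions.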

How the results depend on the processing

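The count of 0 genes past the adjusted threshold held in limma under every alternative except no filter on low values, which gave 8 genes, none of them a member; across all settings the number at an unadjusted p under 0.05 was between 307 and 1557. Of 118 alternative values of single members, 1 turned round: Ctss had a log2 difference of -0.00604 without RBP-J KO replicate 1 and 1.25 without RBP-J KO replicate 2, and H2-Oa was at 0 without the first of these. The members' median log2 difference was between 0.288 (without RBP-J KO replicate 1) and 2.44 (without RBP-J KO replicate 2) with a library left out, and 1.38 without H2-Oa, an alternative chosen after seeing the data. With a library left out, the lone sample of its group is assumed to vary like the other group. No scaling moved the median of all genes by over 0.1. With the replicate number as a block (replicate block), 0 genes and 0 members passed, the median of the members was 1.40, and the smallest adjusted p of a member was 0.0916 (Cd74 and H2-DMa). Deviations from the group means correlated between libraries of equal number (r = 0.639, over genes, which are not independent replicates), but the labels do not say that a number marks shared mice. With 2 libraries per group and no read depth, levels near 0 such as those of Ciita and H2-Oa are the least certain.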
